A study of Mus musculus with 12 samples.

Results

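Nkx2-5 loss with Tbx5 intact was examined in mouse hearts at E8.75 (embryonic days after conception) by setting the 3 arrays of Nkx2-5 KO hearts against the 3 arrays of wild-type (WT) hearts. These are 6 of the 12 arrays, and all genes whose probe set carried exactly 1 symbol and lay on an autosome were reported, which gave 19106 of the 19938 genes tested. Genes of the X and Y chromosomes (739 and 9) and 84 genes with no autosome given were left out. Every group consisted of dissected embryonic hearts of that stage, when the linear heart tube loops and the first chamber muscle forms. The other groups, Tbx5 KO and a double KO of Nkx2-5 and Tbx5 together, gave a further comparison of the same loss, and their arrays also entered the model of all 12 arrays that set the standard errors and adjusted p-values. The labels name each genotype only as WT or KO and call the arrays biological replicates. They do not say which part of the gene was removed, how the alleles were made, whether embryos were pooled or how littermates were assigned.

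NKX2-5 is a homeodomain transcription factor made in heart muscle precursors and then in all heart muscle. It binds short DNA sites together with partners such as GATA4 and TBX5, and it is known for switching on genes of chamber muscle and for keeping genes of the inflow tract and of progenitor cells low. Mouse embryos without it form a heart tube that fails to loop properly and die at midgestation.

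Levels below are the authors' deposited log2 values per probe set. A change is the Nkx2-5 KO mean minus the WT mean on that log2 scale, followed by ± its standard error (SE) from a limma fit over all 12 arrays, with n = 3 arrays in each group. A gene was called when its two-sided p, adjusted by Benjamini and Hochberg over 19938 genes, was under 0.05, and only called genes are said to have risen or fallen. Each call was tested again with each of the 6 arrays left out in turn, and a call is said to have held when it passed in all 6 of those fits. For calls that did not hold, the arrays whose omission ended the call are named as WT 1 to 3 and KO 1 to 3, the KO arrays being those of Nkx2-5 KO hearts. These hearts are mixed tissue, so fewer cells of a type and less RNA per cell cannot be told apart.

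The Nkx2-5 probe set read 9.33, 9.36 and 9.35 on WT arrays and 8.96, 8.72 and 9.13 on KO arrays. The groups did not overlap, and the fall was by 0.41 ± 0.11 (adjusted p = 0.0499), a small difference for a targeted gene; whether the probes lie in the removed part was not given in the sources used here. Leaving out any of WT 1, WT 2, WT 3, KO 1 or KO 2 ended that call (adjusted p up to 0.138), as did quantile normalization (0.0543), an intensity trend (0.0635), a fit of only these 6 arrays (0.1) and the replicate number as a block (0.0886). Heart muscle genes were bright in both groups: Tnnt2, cardiac troponin T, was at 13.98 to 14.08 in WT hearts and changed by 0.00 ± 0.08. Myl7, the atrial myosin light chain, was at 13.84 to 13.90 in WT and 13.92 to 13.93 in KO hearts. The highest values on these 6 arrays were 14.64 to 14.74, so both genes read near the top of the scale. Whether changes are compressed there was not tested. Array medians lay between 8.05 and 8.19 on these 6 arrays. Of the 9 Y-linked genes, 3 were higher on all 6 arrays that lack Nkx2-5 than on all 6 that have it. The share of all genes that were so was not computed. Of these 9 genes 2 were called in Nkx2-5 KO against WT, beside 4.4% of autosomal genes. In double KO against Tbx5 KO 3 were called, beside 10.7%. The sex of the embryos and the Nkx2-5 genotype thus cannot be told apart on these arrays, in either comparison of Nkx2-5 loss described here.

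In Nkx2-5 KO hearts 841 autosomal genes were called, which is 4.4% of those tested. Of these, 352 were higher (1.84%) and 489 were lower (2.56%), and 126 changed by at least 1 log2 unit (69 higher and 57 lower). The shares 1.84% and 2.56% are those to set beside every count below of list members called in Nkx2-5 KO against WT. At an unadjusted p under 0.05 there were 3390 genes. The balance of rises and falls depended on the scaling: with each array centred on its median, 195 genes were higher and 615 lower. It also depended on the arrays, since 445 were higher and 412 lower without WT 2, and 181 were higher and 147 lower without KO 3. The total was 220 without WT 1, 314 without WT 3, 155 without KO 1 and 328 without KO 3. The calls of 137 genes held (67 higher and 70 lower). The median change over all genes was 0.0048, with 51.2% of genes above 0. In 23.2% of all genes (4430) the 3 KO values and the 3 WT values did not overlap, so a lack of overlap alone says little, and 840 of the 841 called genes had it.

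Genes of the working chamber muscle fell. The natriuretic peptide genes Nppa and Nppb, phospholamban (Pln), connexin 40 (Gja5) and the potassium channel gene Kcna5 all fell at least 3.32-fold. Of 25 chamber myocardium genes tested, 9 fell and 0 rose, against 2.56% and 1.84% of all genes, and the median change of the list was -0.41. This list and those below were written with earlier results of these data known, so their shares are descriptions and not tests. The list lost calls without single arrays but never fell under 5 of 25: 5 fell without WT 1, 5 without WT 3 and 5 without KO 1. The calls of Nppa, Nppb, Pln, Kcna5 and Lrrc10 held.

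Nppa encodes atrial natriuretic peptide, a hormone that embryonic chamber muscle makes in both atria and ventricles. It read 13.29, 13.52 and 13.29 on WT arrays and 11.26, 10.08 and 10.82 on KO arrays. Every KO array lay more than 2 log2 units under the lowest WT array, and Nppa fell by 2.65 ± 0.26, or 6.26-fold (adjusted p = 0.00026). Because Nppa is a long-known target of NKX2-5, the 250 bases before its start site are shown from RefSeq (GRCm38.p6, chr4:148000472-148000721, plus strand), with the letters TNAAGTG, the core that the NKX2-5 homeodomain recognises, in capitals; the match begins at base -241.
Nppa: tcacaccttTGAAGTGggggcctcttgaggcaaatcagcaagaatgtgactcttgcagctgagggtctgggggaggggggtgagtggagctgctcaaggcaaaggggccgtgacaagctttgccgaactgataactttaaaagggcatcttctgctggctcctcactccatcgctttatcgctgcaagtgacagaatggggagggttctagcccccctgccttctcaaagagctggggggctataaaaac

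Such a match is a description of letters and not a site shown to be bound. TNAAGTG was present on either strand in 8.95% of the 18383 windows of the same length (14959 of the genes tested had at least 1). The share was 9.63% of 488 windows of genes that fell and 6.92% of 347 windows of genes that rose, so both shares were near that of all genes.

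Nppb, which encodes brain natriuretic peptide and lies beside Nppa on the chromosome, read 12.79, 13.13 and 12.49 on WT arrays and 10.14, 9.93 and 9.96 on KO arrays. The KO values lay within 0.3 of each other and far under the WT values, and Nppb fell by 2.80 ± 0.26, or 6.94-fold (adjusted p = 0.00023). The receptors for these peptides were not called: Npr1 changed by 0.14 ± 0.14 and Npr3 by -0.33 ± 0.19. Of the 8 natriuretic peptide genes tested, the peptides Nppa and Nppb were the 2 that fell, and 0 rose.

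Pln encodes the inhibitor of the calcium pump of the sarcoplasmic reticulum. It read 11.46, 11.86 and 11.05 on WT arrays and 9.52, 9.09 and 9.11 on KO arrays, with no overlap, and fell by 2.22 ± 0.27 (adjusted p = 0.00119). Kcna5, a voltage-gated potassium channel, stood at 9.82, 9.94 and 10.08 in WT and 7.95, 8.09 and 8.62 in KO hearts and fell by 1.73 ± 0.19 (adjusted p = 0.00063). Lrrc10, a leucine-rich repeat protein of heart muscle named after its values were seen, fell by 1.39 ± 0.17 (adjusted p = 0.00103). Gja5, the gap junction protein of fast-conducting muscle, read 10.25, 10.24 and 9.97 in WT and 8.12, 8.37 and 8.68 in KO hearts. It fell by 1.76 ± 0.36 (adjusted p = 0.0191), which was lost without WT 1, WT 3 or KO 1 (adjusted p up to 0.0887). The ventricular genes moved less: Irx4, a ventricular homeobox factor, fell by 0.72 ± 0.17 and Myl2, the ventricular myosin light chain, by 0.41 ± 0.09. Their calls ended without any 1 of 5 arrays, KO 2 being the exception for both (adjusted p up to 0.141 and 0.0936). Bmp10, a growth factor of trabecular muscle, was not called, at 10.16, 10.86 and 10.20 in WT and 11.09, 10.34 and 10.65 in KO hearts, which overlapped.

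**Figure D1:**
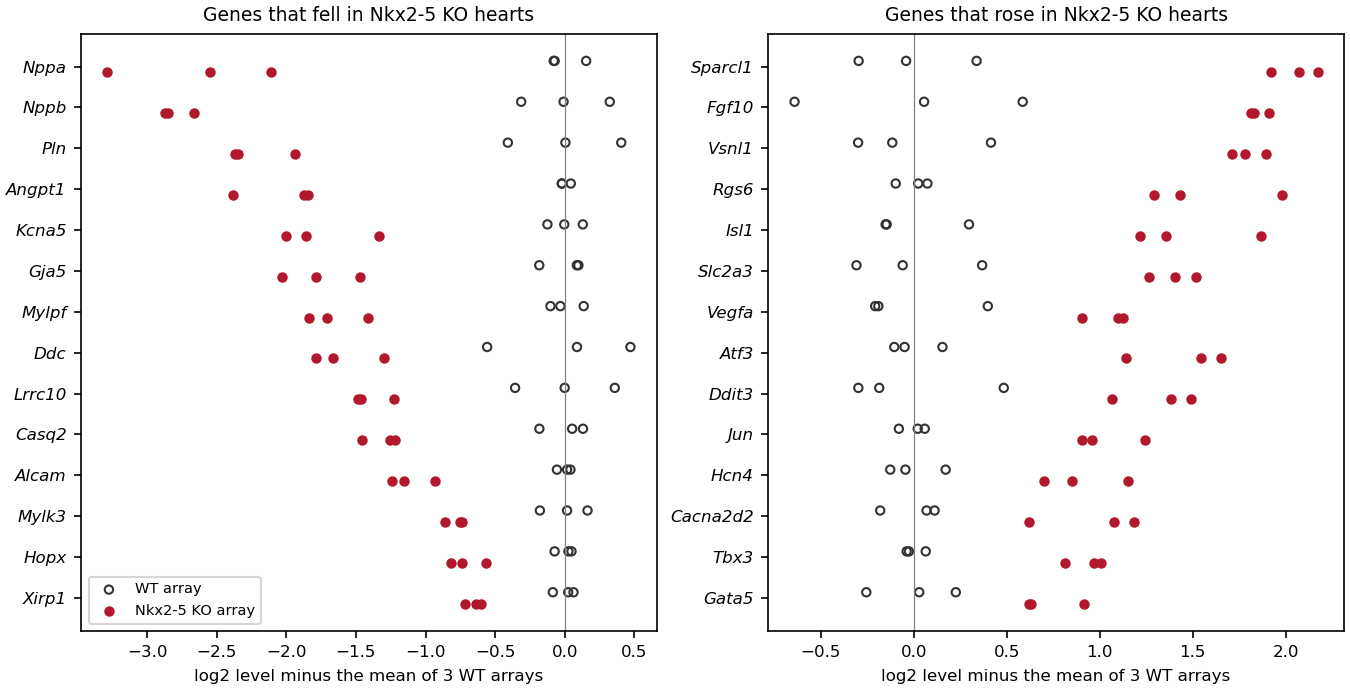
Each point is 1 array; the horizontal axis is the log2 level of a gene minus the mean of the 3 WT arrays, with WT arrays as open circles and Nkx2-5 KO arrays as filled red circles. In the left panel Nppa, Nppb and Pln lie about 2 to 3 log2 units under the WT arrays on every KO array; in the right panel Sparcl1, Fgf10 and Vsnl1 lie above every WT array.

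Genes of the inflow tract and sinus node, where the venous pole and the later pacemaker form, split into a rising and a falling group. Of 21 tested, 6 rose (Vsnl1, Rgs6, Isl1, Cacna2d2, Tbx3 and Hcn4) and 3 fell (Nr2f1, Shox2 and Kcnj3), with a median change of 0.009. Leaving out KO 1 reduced this to 3 rises and 0 falls, and no fall remained without WT 1 or KO 2 either. The calls of Vsnl1, Rgs6 and Cacna2d2 held.

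Vsnl1, a neuronal calcium sensor that also marks the venous pole, read 10.78, 10.60 and 11.32 in WT and 12.79, 12.61 and 12.68 in KO hearts. The KO values were tight and all above the WT values, and Vsnl1 rose by 1.80 ± 0.19 (adjusted p = 0.0004). Rgs6, which damps signalling from G protein-coupled receptors in pacemaker cells, stood at 7.84, 7.79 and 7.67 in WT and 9.74, 9.20 and 9.06 in KO hearts. It rose by 1.57 ± 0.16 (adjusted p = 0.00029). Cacna2d2, an auxiliary subunit of voltage-gated calcium channels, rose by 0.96 ± 0.15 (adjusted p = 0.00656). Hcn4, the pacemaker channel, read 9.65, 9.74 and 9.95 in WT and 10.63, 10.48 and 10.94 in KO hearts and rose by 0.90 ± 0.18 (adjusted p = 0.0176). Its groups did not overlap, but the call ended without WT 1, KO 1 or KO 3 (adjusted p up to 0.0774). Tbx3, a repressor of chamber genes in the conduction system named after its values were seen, rose by 0.93 ± 0.16 (adjusted p = 0.00876) and lost its call only without KO 1 (adjusted p = 0.0516).

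Of the falling inflow genes, Shox2 and Nr2f1 encode transcription factors and Kcnj3 a potassium channel subunit. Shox2, which acts in the sinus node, stood at 7.48, 7.40 and 7.74 in WT and 6.74, 6.67 and 7.11 in KO hearts and fell by 0.70 ± 0.15 (adjusted p = 0.0219). Nr2f1, an orphan nuclear receptor of atrial and venous muscle, was at 9.48, 9.46 and 9.41 in WT and 8.70, 8.41 and 9.12 in KO hearts, where KO 3 was nearest to WT, and fell by 0.71 ± 0.16 (adjusted p = 0.0287). The Shox2 call ended without WT 1, WT 3, KO 1 or KO 2 (adjusted p up to 0.0991) and the Nr2f1 call without any array but KO 3 (adjusted p up to 0.107) and in the 6-array fit (0.0557), which uses only these 6 arrays. Other factors of the venous pole were not called: Nr2f2, a relative of Nr2f1, changed by -0.15 ± 0.24 and Tbx18 by -0.53 ± 0.20 (adjusted p = 0.176).

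Of 30 core cardiac transcription factors and cofactors tested, 2 rose and 5 fell (23.3% called, against 4.4% of all genes), the 5 including Nkx2-5 itself, and the median change was 0.091. The falls numbered 2 without KO 2, 2 without KO 3, 2 in the 6-array fit and 1 without WT 1, WT 3 or KO 1. Gata4, Tbx5, Tbx20, Mef2c and Hand2, which act with NKX2-5 in early heart muscle, were not called, with changes of 0.21 ± 0.13, 0.26 ± 0.15, 0.20 ± 0.14, 0.10 ± 0.09 and -0.12 ± 0.10. Hopx, a homeodomain-only cofactor in heart muscle cells, fell from 10.47, 10.60 and 10.57 in WT to 9.98, 9.73 and 9.81 in KO hearts, a fall by 0.71 ± 0.11 (adjusted p = 0.00615) that held. Gata5, a relative of GATA4, rose by 0.72 ± 0.13 (adjusted p = 0.0135), which was lost without KO 1 (adjusted p = 0.0652). Hand1, a factor of the outer curvature of the left ventricle, fell by 0.52 ± 0.13, which was lost without any array but WT 2 (adjusted p up to 0.156) and in the 6-array fit (0.0804).

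Some progenitor genes rose. The second heart field is the pool of cells that adds muscle to both poles of the tube, and of 24 such genes 2 rose and 1 fell, with 20 of 24 changes above 0 against 51.2% of all genes. Fgf10, a growth factor of that field, read 7.72, 8.42 and 8.95 in WT and 10.19, 10.17 and 10.27 in KO hearts. The WT arrays were spread over more than 1 log2 unit while the KO arrays were nearly equal, and Fgf10 rose by 1.85 ± 0.26, or 3.61-fold (adjusted p = 0.00283), a call that held. Isl1, the LIM-homeodomain factor that defines the field, was at 9.97, 9.53 and 9.53 in WT and 11.03, 11.54 and 10.89 in KO hearts. It rose by 1.48 ± 0.31 (adjusted p = 0.0192), and the call ended without WT 3, KO 1 or KO 2 (adjusted p up to 0.0687). Sema3c, a guidance cue of the outflow tract, fell by 1.23 ± 0.26 (adjusted p = 0.022), which was lost without WT 1, KO 1 or KO 3 (adjusted p up to 0.0978).

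Of 23 FGF pathway genes 3 rose (Fgf10, Il17rd and Etv4) and 0 fell, which is 13.0% called against 4.4% of all genes. Etv4, an ETS factor induced by FGF signals, rose by 0.61 ± 0.13, and Il17rd, a feedback inhibitor, by 0.88 ± 0.21. The Etv4 call ended without WT 1, KO 1 or KO 2 (adjusted p up to 0.104) and in the 6-array fit (0.0587). The Il17rd call ended without any 1 of the 6 arrays (adjusted p up to 0.122), with centring (0.064) and in the 6-array fit (0.054). Fgf8, the other main ligand, was not called (0.05 ± 0.12). Of 26 BMP pathway genes 0 were called by limma, with 6 at an unadjusted p under 0.05, and Bmp2 and Bmp4 changed by 0.04 ± 0.28 and 0.15 ± 0.18.

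Of 16 thick filament genes 2 fell, Mylk3 and Myl2, and of 34 thin filament and Z-disc genes 2 fell, Myoz2 and Xirp1, with 0 rises in both. These are 12.5% and 5.88% of the lists, against 2.56% of all genes that fell. Actc1, cardiac actin, read 14.13, 14.09 and 14.10 in WT and 14.09, 14.08 and 14.11 in KO hearts. The groups overlapped, and Actc1 changed by -0.01 ± 0.07, near the top of the scale of these arrays. The myosin heavy chains Myh6 and Myh7 were not called (0.05 ± 0.14 and 0.29 ± 0.10; adjusted p = 0.933 and 0.128). Mylk3, the cardiac kinase of the myosin light chain, stood at 11.03, 10.89 and 10.69 in WT and 10.13, 10.01 and 10.12 in KO hearts and fell by 0.78 ± 0.10 (adjusted p = 0.00178). Xirp1, an actin-binding protein of the intercalated disc, fell by 0.65 ± 0.08 (adjusted p = 0.00175), and both calls held. Myoz2, a Z-disc protein that binds calcineurin, read 9.76, 10.10 and 8.67 in WT and 7.83, 7.94 and 8.55 in KO hearts, with WT 3 and KO 3 close to each other. It fell by 1.40 ± 0.31 (adjusted p = 0.0247), which was lost without WT 1, WT 2, KO 1 or KO 2 (adjusted p up to 0.109) and when only these 6 arrays were fitted (adjusted p = 0.0624). Outside these lists, Mylpf, a fast skeletal myosin light chain, was at 10.71, 10.47 and 10.54 in WT and 8.74, 9.16 and 8.87 in KO hearts, and fell by 1.65 ± 0.20 (adjusted p = 0.00128), a call that held.

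Of 21 calcium handling genes 3 fell and 0 rose. Besides Pln these were the calsequestrins, which store calcium in the sarcoplasmic reticulum. Casq2 read 8.45, 8.53 and 8.21 in WT and 6.94, 7.14 and 7.17 in KO hearts, and fell by 1.31 ± 0.16 (adjusted p = 0.00141), a call that held. Casq1 fell by 0.62 ± 0.12 (adjusted p = 0.0166), which was lost without WT 1 or KO 3 (adjusted p up to 0.0714). The pump that Pln inhibits and the release channel were not called: Atp2a2 changed by 0.14 ± 0.09 and Ryr2 by 0.29 ± 0.12, and the median of the list was 0.157. Ion channels were called in both directions, 3 higher and 3 lower of 23, with 1 higher and 1 lower left without WT 1 or KO 1. Besides Kcna5, Abcc9, a subunit of ATP-sensitive potassium channels, fell by 0.73 ± 0.15, which was lost without WT 1, WT 3, KO 1 or KO 3 (adjusted p up to 0.0627).

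Among 18 junction genes of heart muscle, Gja5 and Alcam fell and Dsp rose. Alcam, an adhesion protein of early heart muscle, read 12.01, 12.11 and 12.09 in WT and 10.92, 10.83 and 11.14 in KO hearts, and fell by 1.11 ± 0.17 (adjusted p = 0.00567), a call that held. Connexin 43 (Gja1) was not called, at -0.45 ± 0.18 (adjusted p = 0.201). Dsp, desmoplakin of the desmosome, rose by 0.50 ± 0.12, which was lost without WT 1, WT 3, KO 1 or KO 3 (adjusted p up to 0.138), and also with centring (0.0501), in the 6-array fit (0.0854) and with the replicate number as a block (0.0536).

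Signals between heart muscle and endocardium build the trabeculae, and of 22 such genes 2 rose and 1 fell. The fall was in Angpt1, the muscle-derived ligand of the endothelial receptor TIE2. It read 11.24, 11.24 and 11.31 in WT and 9.39, 8.89 and 9.42 in KO hearts and fell by 2.03 ± 0.19, or 4.09-fold (adjusted p = 0.00023), a call that held. Neuregulin (Nrg1), made by endocardium, and its receptor in muscle, Erbb4, were not called (-0.07 ± 0.12 and 0.39 ± 0.15). The rises were in Sema3e and Hbegf, by 0.62 ± 0.15 and 0.58 ± 0.14; the Sema3e call ended without any 1 of the 6 arrays (adjusted p up to 0.134) and with the replicate block (0.0643). The Hbegf call ended without any array but KO 2 (adjusted p up to 0.153) and in the centred, 6-array and replicate block fits (0.0597 to 0.0654).

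Of 27 genes of the cushions and the cardiac jelly, the matrix between muscle and endocardium, 2 rose and 1 fell (11.1% called, against 4.4% of all genes). Sparcl1, a secreted matricellular protein, stood at 10.15, 10.78 and 10.40 in WT and 12.62, 12.37 and 12.52 in KO hearts. It rose by 2.05 ± 0.18, or 4.16-fold (adjusted p = 0.00016), a call that held. Nid1, a basement membrane linker protein, was the other rise, by 0.70 ± 0.18 (adjusted p = 0.0471), which was lost without any array but WT 2 (adjusted p up to 0.16), with centring (0.0826), in the 6-array fit (0.108) and with the replicate block (0.0724). Outside the list, Edil3, a secreted integrin ligand, was at 7.75, 8.68 and 8.35 in WT and 10.01, 9.67 and 9.68 in KO hearts and rose by 1.53 ± 0.23 (adjusted p = 0.00449), which held. Tgfb3, a growth factor of cushion formation, fell by 0.86 ± 0.20, which was lost without WT 1, WT 2, KO 2 or KO 3 (adjusted p up to 0.14), with array weights (0.0605) and in the 6-array fit (0.0779). Of 27 collagen and laminin genes 1 rose and 1 fell, near the share of all genes.

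Several of the largest changes lay outside the lists of heart genes. Plagl1, an imprinted zinc finger factor, read 11.94, 12.51 and 12.08 in WT and 8.25, 10.52 and 7.67 in KO hearts. KO 2 was more than 2 log2 units above the other KO arrays but still under every WT array, and Plagl1 fell by 3.36 ± 0.51, or 10.3-fold (adjusted p = 0.00565), a call that held. Plac8, a small cysteine-rich protein, was at 10.39, 9.98 and 10.33 in WT and 7.69, 8.37 and 7.10 in KO hearts and fell by 2.52 ± 0.25 (adjusted p = 0.00034). Dpysl3, a cytoskeletal protein of growing neurons, stood at 11.49, 11.50 and 11.26 in WT and 9.76, 9.52 and 9.40 in KO hearts and fell by 1.86 ± 0.18 (adjusted p = 0.00023). Ddc, the decarboxylase that makes dopamine and serotonin, fell by 1.58 ± 0.25, Tspan8, a tetraspanin of the cell surface, by 1.56 ± 0.12 and Adh6b, an alcohol dehydrogenase, by 1.86 ± 0.29. All of these calls held, with adjusted p-values of 0.00615, 5.8e-05 and 0.00615 for the last 3. Tlcd4, a membrane protein with a TLC domain, was at 9.75, 7.97 and 9.23 in WT and 6.46, 7.48 and 5.61 in KO hearts. It fell by 2.47 ± 0.47 (adjusted p = 0.014), which was lost without WT 1, WT 3, KO 1 or KO 3 (adjusted p up to 0.0648).

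The largest rise among autosomal genes named by the rule was in Prm1, a protamine that packs sperm DNA. It read 9.11, 8.28 and 8.46 in WT and 11.40, 11.36 and 10.59 in KO hearts and rose by 2.50 ± 0.27, or 5.65-fold (adjusted p = 0.0005). The sperm genes Prm2 and Tnp1, a transition protein, were named after their values were seen and were not called. They changed by -0.02 and 0.16 (adjusted p = 0.963 and 0.444). Of 15 germ cell genes, Prm1 and Kit rose and 0 fell. Kit, the receptor for stem cell factor, was at 8.14, 9.31 and 8.46 in WT and 9.99, 10.00 and 10.07 in KO hearts and rose by 1.38 ± 0.23 (adjusted p = 0.00747). Pax6, a factor of eye and neural tissue, stood at 7.40, 7.47 and 7.39 in WT and 9.22, 9.02 and 9.11 in KO hearts. Neither group spanned more than 0.3, and Pax6 rose by 1.70 ± 0.16 (adjusted p = 0.00023). The calls of Prm1, Kit and Pax6 held. Rises that did not hold were those of Rxfp1, the relaxin receptor (1.46 ± 0.31, ended without WT 1, KO 1 or KO 3, adjusted p up to 0.0936), and Epha4, an ephrin receptor (1.36 ± 0.27, ended without the same 3 arrays, up to 0.0734). Kazald1, a secreted protein with a Kazal domain, rose by 1.58 ± 0.41, with KO 2 at 9.74 against 8.16 and 7.51. Its call ended without WT 1, WT 2, WT 3 or KO 1 (up to 0.129) and in the quantile, centred, 6-array and replicate block fits (0.0639 to 0.111).

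Crebrf, a regulator of the stress factor CREB3, rose by 1.97 ± 0.35 (adjusted p = 0.0112), from 7.47, 8.72 and 8.09 in WT to 10.34, 9.90 and 9.94 in KO hearts. The call ended without WT 1 or KO 1 (adjusted p up to 0.0613). It is the tested gene 2 places before Nkx2-5 in gene order, so it is a close neighbour of the targeted locus. Of the 40 tested genes nearest to Nkx2-5 on chromosome 17 (20 on each side), 2 were called, Crebrf and Uqcc2, which is 5.0% against 4.4% of all genes, and their median change was -0.004.

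The list of genes that respond to low oxygen had 54.2% of its members called, against 4.4% of all genes. Like the other lists, it was written with earlier results of these data known, so this share is a description and not a test. Of its 24 genes, which leave out those of glycolysis, 12 rose and 1 fell, against 1.84% and 2.56% of all genes, and the list median was 0.718. The fall was in Hif1a, which encodes the oxygen-regulated factor itself and was named after its values were seen (by 0.38, adjusted p = 0.0319); no member fell in any fit with 1 array left out. The rises depended on single arrays: 4 rose without WT 1, 3 without WT 3, 1 without KO 1, 7 without KO 2 and 4 without KO 3, while 18 rose without WT 2. It was 7 with each array centred, 7 in the 6-array fit and 7 with the replicate block. The mean of the list on the WT arrays lay at -0.32, 0.37 and -0.06 around their own mean, and on KO arrays at 0.72, 0.65 and 0.68. WT 1 was thus lowest and WT 2 highest, and every KO array lay above WT 2.

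Vegfa, the growth factor for blood vessels, held its call. It read 10.42, 11.03 and 10.44 in WT and 11.73, 11.53 and 11.75 in KO hearts and rose by 1.04 ± 0.16 (adjusted p = 0.00567). P4ha1, a prolyl hydroxylase for collagen, rose by 0.99 ± 0.18 (adjusted p = 0.0129), which was lost only without KO 1 (0.0652). Egln3, an oxygen-sensing hydroxylase, showed the spread of the WT arrays, at 7.84, 10.47 and 9.49 against 11.35, 11.08 and 11.25 in KO hearts. It rose by 1.96 ± 0.45 (adjusted p = 0.0303), and the call ended without WT 3, KO 1, KO 2 or KO 3 (adjusted p up to 0.111) and in the 6-array fit (0.0849). P4ha2, a relative of P4ha1, rose by 1.07 ± 0.27 (adjusted p = 0.0468). Outside the list, Ndufa4l2, a mitochondrial protein induced in low oxygen, stood at 7.21, 9.19 and 7.44 in WT and 9.27, 9.69 and 9.68 in KO hearts. It rose by 1.60 ± 0.41 (adjusted p = 0.049). The calls of Ndufa4l2 and P4ha2 ended without any array but WT 2 (adjusted p up to 0.19 and 0.166) and in the centred, 6-array and replicate block fits (0.067 to 0.111).

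Of 20 glycolysis genes 5 rose and 0 fell, with a list median of 0.2. Slc2a3, a glucose transporter, read 10.90, 11.57 and 11.15 in WT and 12.73, 12.47 and 12.61 in KO hearts and rose by 1.40 ± 0.16 (adjusted p = 0.00071). Pdk1, a kinase that keeps pyruvate out of the citric acid cycle, rose by 0.66 ± 0.11 (adjusted p = 0.0072), and both calls held. Hk2, which traps glucose in the cell, rose by 0.92 ± 0.19, which was lost without WT 1, WT 3, KO 1 or KO 3 (adjusted p up to 0.0927). The main embryonic glucose transporter, Slc2a1, was not called (0.26 ± 0.11, adjusted p = 0.209). The count was 2 without WT 1, WT 3, KO 1 or KO 3, and 7 without WT 2. With each array centred, in the 6-array fit and with the replicate block it was 3.

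The integrated stress response slows protein synthesis and switches on ATF4 targets under amino acid or protein-folding stress. Of 31 genes of this response and of amino acid supply 8 rose and 0 fell (25.8% called, against 4.4% of all genes). The list median was 0.326, and the calls of Atf3, Ddit3, Sesn2 and Ppp1r15a held. The count was 4 without WT 1 and 5 without WT 3, KO 1 or KO 3. Atf3, a stress-induced repressor, stood at 9.62, 9.88 and 9.67 in WT and 10.86, 11.38 and 11.27 in KO hearts and rose by 1.45 ± 0.19 (adjusted p = 0.00217). Ddit3 (CHOP), a factor of prolonged stress, read 9.93, 10.60 and 9.81 in WT and 11.18, 11.60 and 11.50 in KO hearts and rose by 1.31 ± 0.22 (adjusted p = 0.00751). Ppp1r15a, which ends the response by restoring translation and was named after its values were seen, was at 8.88, 8.85 and 9.11 in WT and 10.01, 9.96 and 9.87 in KO hearts and rose (adjusted p = 0.00071). Slc7a11, the cystine transporter, rose by 1.17 ± 0.21 (adjusted p = 0.0112), which was lost only without WT 1 (0.0512), and Chac1, which breaks down glutathione, by 1.10 ± 0.22, which was lost without WT 1, WT 3, KO 1 or KO 3 (up to 0.0764). Of 19 chaperone and folding genes of the endoplasmic reticulum, 2 rose and 1 fell, with 14 of 19 changes under 0. Herpud1, which helps to degrade misfolded proteins, rose by 0.89 ± 0.14 (adjusted p = 0.00575) and held.

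Of 28 immediate early genes, which respond first to stimuli, 4 rose and 1 fell (17.9% called, against 4.4% of all genes). Changes above 0 numbered 24 of 28. Without WT 1 or KO 3 there were 2 calls, and without WT 3 or KO 1 there were 3. Jun read 10.30, 10.40 and 10.44 in WT and 11.29, 11.63 and 11.34 in KO hearts and rose by 1.03 ± 0.12 (adjusted p = 0.00068), which held. Egr1, a zinc finger factor, rose by 1.42 ± 0.26 (adjusted p = 0.0129), which was lost without WT 1 or KO 3 (up to 0.0588). The fall was in Myc, by 0.49 ± 0.13 (adjusted p = 0.0484), which was lost without any array but KO 2 (up to 0.19) and in the quantile, intensity trend, 6-array and replicate block fits (0.0512 to 0.0861). Of 25 p53 targets and cell cycle inhibitors 3 rose and 0 fell: Btg2, an antiproliferative gene, by 1.08 ± 0.17, Sesn2, a stress sensor, by 0.87 ± 0.14, and Cdkn1b (p27) by 0.72 ± 0.14. The calls of Btg2 and Sesn2 held; that of Cdkn1b ended without WT 1, WT 3 or KO 1 (up to 0.0696) and with the mean of its probe sets (0.0623).

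Heat shock chaperones went the other way, with 4 of 20 lower and 0 higher and a median of -0.224. The count was 1 without KO 1, 2 without WT 1, WT 3 or KO 3, and 7 with an intensity trend. Hsph1, a cytosolic chaperone, was at 11.54, 11.52 and 11.65 in WT and 10.57, 10.68 and 10.60 in KO hearts and fell by 0.95 ± 0.12 (adjusted p = 0.00142), which held. Ahsa1, which activates HSP90, fell by 0.93 ± 0.16 (adjusted p = 0.0083), which was lost only without KO 1 (0.0506). Cct3, a chaperonin subunit, and Stip1, an HSP90 cochaperone, fell by 0.66 ± 0.14 and 0.46 ± 0.10; both calls ended without WT 1, WT 3, KO 1 or KO 3 (up to 0.0873).

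Some genes of mitochondria fell. Of 35 genes of the citric acid cycle and fatty acid oxidation 4 fell and 0 rose (11.4% called, against 4.4% of all genes). The list median was -0.176, and 2 fell without WT 1 or KO 3. Idh3a, a subunit of isocitrate dehydrogenase, fell from 11.66, 11.38 and 11.30 to 10.76, 10.61 and 10.60, by 0.79 ± 0.11 (adjusted p = 0.0032). Suclg1, of succinate-CoA ligase, fell by 0.57 ± 0.09 (adjusted p = 0.00725), and both calls held. All 33 respiratory chain genes had changes under 0, with a median of -0.203, but only Cox7a2 was called (a fall by 0.36 ± 0.09), and that call ended without any array but WT 2 (adjusted p up to 0.157), in the 6-array fit (0.0922) and with the replicate block (0.0597). These genes tend to vary together on an array, so the shared sign does not count as 33 separate observations.

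All 33 DNA replication genes likewise had changes under 0, with a median of -0.394, and 3 were called. Cdc6, which loads the replicative helicase, read 10.12, 9.54 and 10.20 in WT and 8.84, 9.24 and 8.88 in KO hearts and fell by 0.97 ± 0.19 (adjusted p = 0.0176). Tyms, which makes thymidylate, fell by 0.84 ± 0.17, and Gins1, part of the helicase, by 0.81 ± 0.16. Each of these calls ended without WT 1, WT 3, KO 1 or KO 3 (adjusted p up to 0.0812), which left 0 calls in the list, while the 6-array fit called 7. The list mean was -0.48, -0.22 and -0.54 on KO arrays against -0.02, -0.02 and 0.04 on the WT arrays, so KO 2 was nearest to WT. Of 25 mitosis genes 0 were called by limma, 2 were at an unadjusted p under 0.05, and the median was -0.199. Of 22 ribosome biogenesis genes 5 fell and 0 rose, with all 22 changes under 0 and a median of -0.399. Polr1b, a subunit of RNA polymerase I, fell by 0.75 ± 0.14, which was lost without WT 1 or KO 1 (up to 0.0652). The count of ribosome biogenesis genes was 0 without WT 1, 1 without WT 3, 0 without KO 1, 7 without KO 2, 1 without KO 3 and 16 with array weights.

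**Figure D2:**
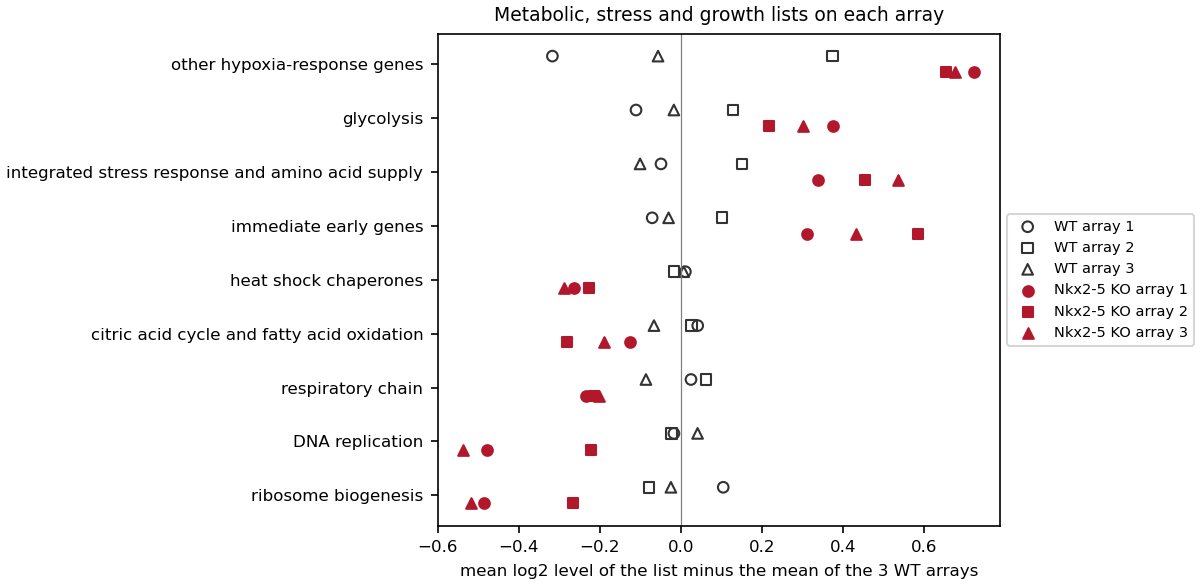
The horizontal axis is the mean log2 level of a list on 1 array minus the mean of the 3 WT arrays; open symbols are WT arrays, filled red symbols are Nkx2-5 KO arrays, and the shape gives the array number. The hypoxia-response list lies at 0.65 to 0.72 on KO arrays and spreads from -0.32 to 0.37 on the WT arrays, while the respiratory chain list lies at -0.23 to -0.20 on KO arrays.

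Smaller lists showed scattered calls. Of 18 retinoic acid genes 3 rose and 0 fell. Aldh1a1, an enzyme that makes retinoic acid, read 7.98, 8.21 and 8.07 in WT and 9.25, 9.35 and 8.72 in KO hearts and rose by 1.02 ± 0.16 (adjusted p = 0.00581), which held. Cyp26a1, which degrades it, rose by 0.84 ± 0.17, which was lost without WT 1 or KO 1 (up to 0.0823), and Rbp4, the carrier of retinol, by 1.14 ± 0.25, which was lost without WT 1, WT 3, KO 1 or KO 3 (up to 0.1). Of 14 cholesterol synthesis genes 2 fell, Sqle by 1.08 ± 0.12 (adjusted p = 0.00068), which held, and Idi1 by 1.49 ± 0.30, which was lost without WT 1, WT 3, KO 1 or KO 3 (up to 0.0803). Of 29 Wnt genes 1 rose, the receptor Fzd7, by 0.88 ± 0.17, which was lost only without KO 1 (0.0689). Of 25 axon guidance genes 3 rose and 3 fell, with 0 calls left without WT 1, KO 1 or KO 3.

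**Figure D3:**
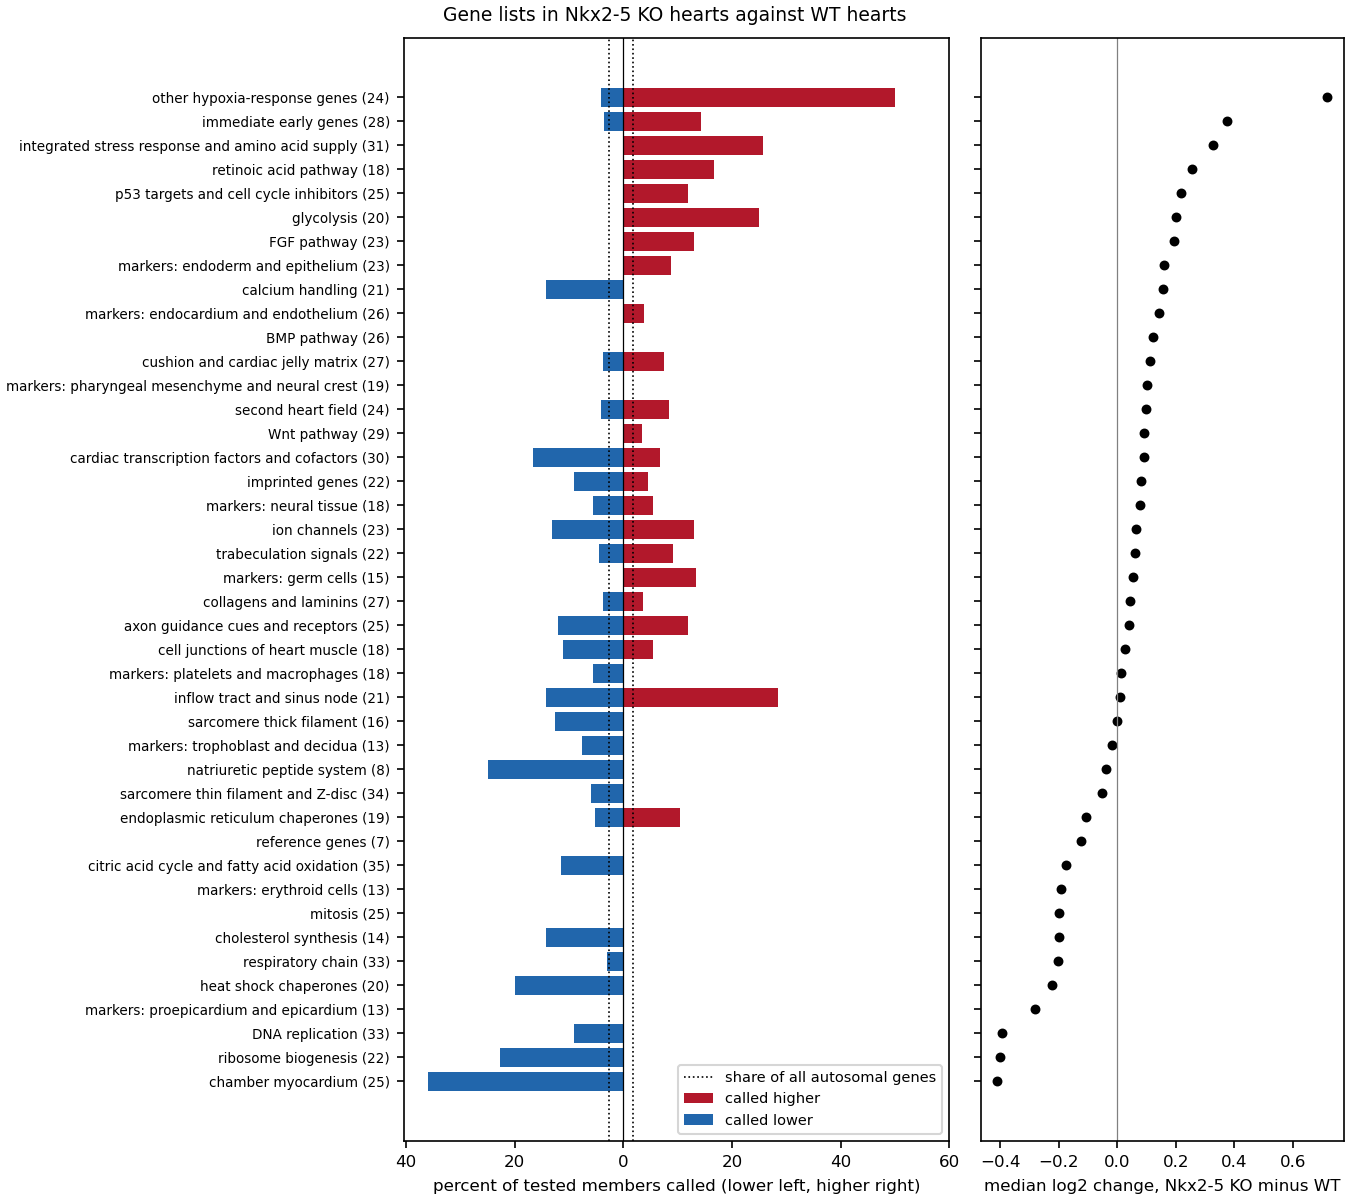
Left panel, the percent of tested members of each list called higher (red, to the right) or lower (blue, to the left) in Nkx2-5 KO hearts, with dotted lines at the shares of all autosomal genes (1.84% and 2.56%) and the number tested in brackets; right panel, the median log2 change of the list. Hypoxia-response genes have the largest share of rises and the highest median (0.718), and chamber myocardium the largest share of falls and the lowest median (-0.41).

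Markers of other cells were read for a change in the makeup of the dissected tissue. Of 26 endothelial genes 1 rose, Sox17, by 0.48 ± 0.11, which was lost without WT 1, WT 3, KO 1 or KO 3 (up to 0.103) and with centring (0.0508), while 5 rose without WT 2. Of 13 erythroid, 19 pharyngeal and neural crest and 13 epicardial genes 0 were called by limma, and 1, 2 and 7 were at an unadjusted p under 0.05. Over all genes 3390 of 19106 were, a smaller share than the 7 of 13 epicardial genes. In the epicardial list 10 of 13 changes were under 0, with a median of -0.28. Its mean was 0.43 on WT 2, against -0.29 on WT 1, -0.13 on WT 3 and -0.19 to -0.14 on KO arrays. The mean of the erythroid list was lowest on WT 2 (-0.99) and KO 2 (-0.85), against 0.71 and 0.27 on the other WT arrays and 0.02 and 0.10 on the other KO arrays, so these arrays differed in blood genes within both groups. Of 18 platelet and macrophage genes 1 fell, the lysozyme gene Lyz2, by 1.01 ± 0.20, which was lost without WT 1, WT 3 or KO 1 (up to 0.0716).

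Endoderm and epithelial markers were higher on some KO arrays. Of 23, 2 rose and 0 fell (8.7% called, against 4.4% of all genes). Changes above 0 numbered 19 of 23, against 51.2% of all genes. Esrp1, an epithelial splicing factor, was at 6.91, 7.23 and 7.32 in WT and 8.84, 9.72 and 7.74 in KO hearts. Cdh1 (E-cadherin) stood at 7.72, 7.31 and 7.80 in WT and 8.86, 9.51 and 8.12 in KO hearts. Both were highest on KO 2 and near the WT level on KO 3, and they rose by 1.61 ± 0.37 and 1.22 ± 0.28. Their calls ended without any array but KO 3 (adjusted p up to 0.116 and 0.102), in the 6-array fit (0.0689 and 0.0668) and with the replicate block (0.0508 and 0.0526). The list mean was 0.33, 0.53 and 0.18 on KO arrays against -0.14, -0.03 and 0.17 on the WT arrays. Isl1 was likewise highest on KO 2, while Fgf10 and Pax6 were as high on KO 3 as on the other KO arrays; the part of endodermal tissue in these rises was not tested. Of 18 neural markers Pax6 rose and Tubb3, a neuronal tubulin, fell, by 1.49 ± 0.27, which was lost only without KO 1 (0.0627). Of 13 trophoblast and decidual genes 1 fell, Hand1, which heart muscle also makes. Of 7 reference genes 0 were called by limma, with 2 at an unadjusted p under 0.05 and a median of -0.125.

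Loss of Nkx2-5 was also measured a second time in the series, in hearts without Tbx5, by setting the double KO against the Tbx5 KO. The level differences of that contrast come from none of the WT and Nkx2-5 KO arrays, but in the 12-array fit both contrasts share 1 estimate of the spread. In the 12-array fit it called 2039 genes (10.7%), 542 higher and 1497 lower, and with each array centred 282 higher and 1823 lower. So that the fits shared no array, each contrast was also fitted on its own 6 arrays. The Nkx2-5 KO contrast then called 732 genes (3.83%) and the contrast without Tbx5 called 1419 (7.43%). Of these, 320 genes were called in both, 318 of them in the same direction (86 higher and 232 lower), which is 43.4% of the first list and 22.4% of the second. Without regard to the second call, 679 of the 732 genes (92.8%) had the same sign in the other contrast. The same share over all genes was not computed, so 92.8% stands without a baseline. The number called the same way was 57 without WT 1, 69 without WT 3, 35 without KO 1 and 54 without KO 3. Without array 1 of the Tbx5 KO group it was 135, and without array 2 of the double KO group 174. TNAAGTG was found in 11.3% of 230 windows of the genes lower in both and 4.65% of 86 windows of the genes higher in both, beside 8.95% of all windows.

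Falls called in both 6-array fits included genes of several functions. In hearts without Tbx5 Plac8 fell by 2.66 ± 0.25, Angpt1 fell by 2.43 ± 0.19, Dpysl3 fell by 2.06 ± 0.18 and Nppa fell by 1.93 ± 0.26, all with adjusted p-values of 0.00059 or less in the 12-array fit. Alcam fell by 3.15 ± 0.17 there and Ddc fell by 2.71 ± 0.25, and both were also called lower in both fits. Mylpf, Hsph1, Xirp1, Idh3a and Suclg1 also fell in both. Rises shared by both included Prm1, which rose by 2.30 ± 0.27 without Tbx5 (adjusted p = 0.00023), Atf3 by 2.19 ± 0.19, Jun by 1.15 ± 0.12, Hcn4 by 1.15 ± 0.18 and Pax6 by 0.87 ± 0.16 (adjusted p = 0.00417). The changes of Prm1 were thus 2.50 and 2.30, and those of Dpysl3 -1.86 and -2.06, within their errors of each other. Atf3 belongs to the stress response list and to the immediate early list. In the 12-array fit without Tbx5, 2 of 31 stress response and amino acid supply genes rose and 3 fell (median -0.063). Of 28 immediate early genes 10 rose and 0 fell there (median 0.346). Over all 19106 genes 542 rose and 1497 fell in that contrast.

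**Figure D4:**
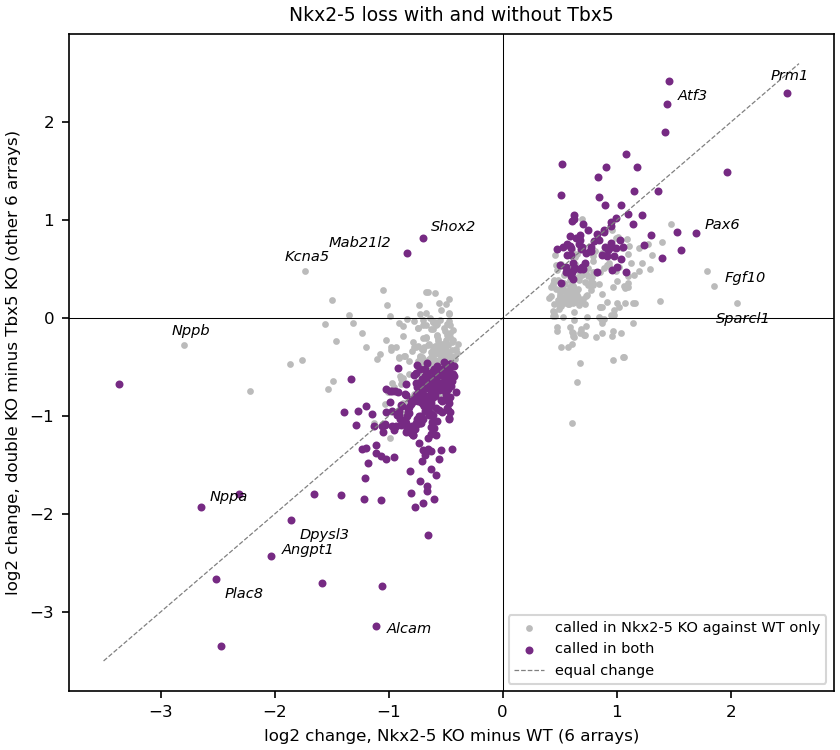
Each point is a gene called in the Nkx2-5 KO against WT fit of 6 arrays; the horizontal axis is its log2 change there and the vertical axis its log2 change in the double KO against Tbx5 KO fit of the other 6 arrays. Purple points were called in both fits (320 genes), grey points only in the first, and the dashed line marks equal change; nearly all points (679 of 732) lie where both changes have the same sign.

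Calls in opposite directions were made for 2 genes, Shox2 and Mab21l2, the latter named after its values were seen. Shox2 fell by 0.70 with Tbx5 present and rose by 0.82 ± 0.15 without it (adjusted p = 0.00371). Mab21l2, a nuclear protein of early organ formation, fell by 0.83 ± 0.17 (adjusted p = 0.0178) and rose by 0.67 ± 0.17 without Tbx5 (adjusted p = 0.0231); the fall ended without WT 3, KO 1 or KO 3 (up to 0.0691).

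Whether the effect of Nkx2-5 loss depended on Tbx5 was tested directly as the difference between the 2 contrasts, the non-additive term. It was called for 101 genes (0.529%), 18 above and 83 under 0. Among the 2 chamber genes called the term was above 0, with low levels in every group that lacks either gene. Nppb averaged 12.80 in WT hearts, 10.01 with loss of Nkx2-5, 9.62 with loss of Tbx5 and 9.34 with loss of both, a term of 2.52 ± 0.37 (adjusted p = 0.00923). Kcna5 averaged 9.95, 8.22, 7.51 and 7.99 in the same order (term 2.21 ± 0.27, adjusted p = 0.00443), and Casq2, the calcium store protein, 8.40, 7.08, 7.32 and 7.27 (term 1.26 ± 0.23, adjusted p = 0.0339). In these genes the 3 KO groups lay near each other and under WT. The KO means of Kcna5 and Casq2 were under 8.362, the median level of all genes, and those of Nppb above it. Whether low signal limited a further fall was not tested. For Nppa the term was not called (0.72 ± 0.37, adjusted p = 0.618), and its level fell further in the double KO, to a mean of 8.13 from 10.06 in the Tbx5 KO.

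Alcam showed the opposite form. It averaged 12.07 in WT hearts, 10.96 without Nkx2-5, 12.36 without Tbx5 and 9.21 without both, so it fell by 3.15 ± 0.17 where Tbx5 was missing and by 1.11 where it was present (term -2.04 ± 0.24, adjusted p = 0.00421). Sparcl1 rose with Tbx5 present but changed by 0.16 ± 0.18 without it, from a Tbx5 KO mean of 11.99 (term -1.89 ± 0.25, adjusted p = 0.00646). Cacna2d2 was low in both groups without Tbx5, at 8.51 and 8.33, and its rise was seen only with Tbx5 present (term -1.14 ± 0.22, adjusted p = 0.0406). For Vsnl1, which averaged 7.22 and 7.71 in the groups without Tbx5, the term just missed the threshold (-1.31 ± 0.26, adjusted p = 0.0502). Of 25 mitosis genes 7 had a called term under 0, beside 83 of all 19106 genes. In the contrast without Tbx5 24 of 25 fell, beside 1497 of all 19106 genes, and 0 of 25 fell with Tbx5 present. Of 33 DNA replication genes 23 fell without Tbx5, to be set beside the same 1497 of 19106, but the term was called for only 1.

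**Figure D5:**
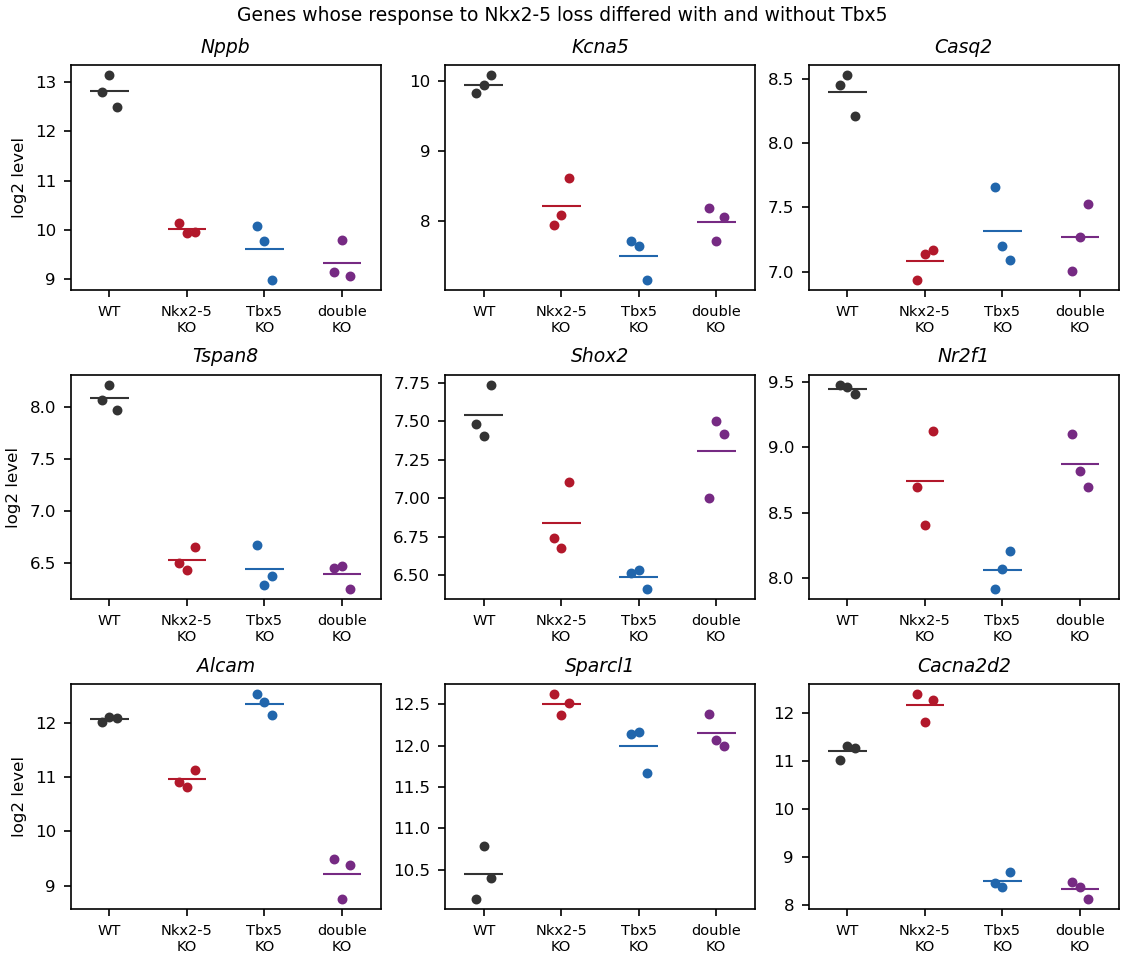
Log2 level of 9 genes with a called non-additive term on each array of the 4 groups; points are arrays, horizontal lines are group means of 3 arrays, and the vertical scale differs between panels and does not start at 0. Nppb, Kcna5, Casq2 and Tspan8 are low in all 3 KO groups, Shox2 and Nr2f1 are lowest in the Tbx5 KO, and Alcam is lowest in the double KO.

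MicroRNA genes on the array stand for their precursor transcripts rather than for mature microRNAs. Of 261 autosomal microRNA genes 3 were called (1.15%, against 4.4% of all genes): Mirlet7d, Mirlet7f-1 and Mir20a, named after their values were seen. The let-7 genes d, f-1 and a-1 lie within 2183 bases on chromosome 13, and the mature forms share 1 seed (bases 2 to 8, in capitals), shown from RefSeq (GRCm38.p6, minus strand; chr13:48536078-48536099, chr13:48537889-48537910 and chr13:48538239-48538260) because these neighbours differed in their values.
mmu-let-7d-5p: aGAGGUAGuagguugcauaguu
mmu-let-7f-5p: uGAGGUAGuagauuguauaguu
mmu-let-7a-5p: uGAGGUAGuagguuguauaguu

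Mirlet7d read 8.66, 8.63 and 8.70 in WT and 10.00, 9.93 and 9.73 in KO hearts and rose by 1.23 ± 0.17 (adjusted p = 0.00298), a call that held; without Tbx5 it rose by 1.05 ± 0.17 (adjusted p = 0.00202). Mirlet7f-1 stood at 7.93, 7.74 and 8.52 in WT and 9.22, 9.02 and 9.23 in KO hearts and rose by 1.09 ± 0.27, which was lost without any array but WT 3 (adjusted p up to 0.137) and with the replicate block (0.0604). Mirlet7a-1, likewise named after its values were seen, overlapped between the groups, with a change of 0.00 ± 0.27. Mir20a rose by 0.63 ± 0.16 (adjusted p = 0.0487), which was lost without any 1 of the 6 arrays (up to 0.169) and in the quantile, centred, 6-array and replicate block fits (0.0578 to 0.0785).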

How the data were processed

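The authors deposited log2 values for each probe set of an Affymetrix array; the method of summarizing and normalizing them was not given in the sources used here. Per the labels' protocols, a PicoPure kit gave total RNA, which NuGEN Ovation reagents amplified before biotin labelling. The precision is limited by the number of arrays, 3 in each of 4 groups, and where the labels do not say that replicates came from separate embryos p-values measure only the spread between these samples. Of 35557 probe sets 21789 carried 1 symbol, 1621 several and 12147 none listed; for 999 genes with more than 1 probe set, only the brightest on average was used. RefSeq (GRCm38.p6) gave chromosomes, gene order and sequences, and 21698 probe sets matched it by Entrez number.

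A model with 4 group means was fitted to 19938 genes with limma 3.58.1 (lmFit, eBayes) in R 4.3.3, with no filter on dim signals, and adjusted over all of them. The procedure was tested on simulated data for the Nkx2-5 KO against WT comparison over 19938 genes: 90% of genes changed by 1 log2 unit and 100% of those changed by 2 were called, with 8 false calls. The simulated noise was independent between genes and arrays, with no effect shared by the genes of an array. These figures thus check the procedure and need not hold for the real arrays. Tables were made in Python 3.11.15 with pandas 2.3.3 and numpy 2.4.6, and plots with matplotlib 3.10.9. The 42 lists (988 entries, 933 measured on autosomes) and the rules were chosen with earlier results of these data known. Named were a fixed panel of heart genes, the 14 largest rises and falls among called genes without overlap, up to 4 called members of each list, the 5 largest rises and falls called in both 6-array fits, and the 4 largest non-additive terms in each direction; the largest changes exclude predicted genes, RIKEN clones, small RNAs and chemosensory receptors, and other genes are said to be named after their values were seen. Alternatives were quantile normalization, centring, an intensity trend, array weights, only the arrays compared, the replicate number as a block, brighter genes only, the mean of a gene's probe sets, and each array left out.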

Additional observations from a re-analysis of the deposited data

Results flagged for a closer look

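In 15 named genes the effect of Nkx2-5 loss differed between hearts with and without Tbx5 by the test of the non-additive term. The terms above 0 were those of Nppb (2.52), Kcna5 (2.21), Shox2 (1.52), Nr2f1 (1.52), Tspan8 (1.504), Mab21l2 (1.501) and Casq2 (1.26). The terms under 0 were those of Alcam (-2.04), Sparcl1 (-1.89), Mir20a (-1.56) and Cacna2d2 (-1.14), and of 4 genes that were not called in Nkx2-5 KO hearts. Those 4 were the placental hormone genes Prl3d3 (-5.62), Prl8a2 (-2.87) and Prl2c5 (-2.82) and the endogenous retroviral gene Erv3 (-3.69), whose means were highest in the Tbx5 KO group, at 9.89, 9.87, 8.64 and 10.88. Leaving out 1 of the 12 arrays changed the number of called terms from 101 to between 45 and 251. The causes of these differences were not tested.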

How the results depend on the processing

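The 841 calls of Nkx2-5 KO against WT became 2052 with array weights and lay between 155 and 857 with 1 array left out. The other settings gave 609 (replicate block) to 1105 (brighter genes only, of 9621 tested). The 2039 calls of double KO against Tbx5 KO ran from 1232 to 2110 with 1 array left out. The 101 non-additive calls became 326 with array weights and 57 with the replicate block, and 45 to 251 with 1 array left out. The 318 genes called the same way in both contrasts became 491 among brighter genes, and 35 to 334 with 1 array left out. Fitted with the replicate block, the 2039 calls became 1779 and the 318 became 229. Same-numbered WT and KO arrays deviated together with r = 0.0245, 0.207 and 0.192, and pairs of unlike number with r from -0.258 to 0.102. WT 2 and WT 3 correlated best with the same-numbered KO array, but WT 1 with KO 3 (0.102). These values do not settle whether the numbers pair the arrays. The main fits left them unpaired, and the replicate block called 609 genes. Of the 142 named genes 113 were called, 43 of these calls held without each of the 6 arrays, 82 held in every other setting, and 0 changed direction; 17 calls ended with the replicate block, 25 with only the arrays compared and 14 with centring. The causes were not tested. With 3 arrays in a group, changes well under 1 log2 unit are at the limit of detection.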

Other observations

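Imprinted genes varied between arrays of a group. Of 22 tested, Igf2r rose and Plagl1 and Ndn fell. Igf2r, the receptor that clears insulin-like growth factor 2, read 10.30, 10.67 and 12.84 on WT arrays and 13.39, 12.75 and 13.23 on Nkx2-5 KO arrays, so WT 3 overlapped the KO arrays. Its rise by 1.86 ± 0.47 (adjusted p = 0.046) ended without WT 1, WT 2, KO 1, KO 2 or KO 3 (adjusted p up to 0.173), with centring (0.0524) and in the 6-array fit (0.114). Igf2, its ligand, named after its values were seen, was likewise low on WT 1 and WT 2 alone, at 9.57, 9.76 and 12.93 on WT arrays and 13.09, 13.11 and 13.25 on KO arrays, and was not called (adjusted p = 0.151). Ndn, an imprinted growth suppressor, fell by 0.57 ± 0.12, a call that ended without WT 1, KO 1 or KO 3 (adjusted p up to 0.0876) and in the 6-array fit (0.0591).

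Probe sets without exactly 1 symbol were fitted in the same way but belong to no comparison above. Of 13768 such probe sets 79 were called in Nkx2-5 KO hearts (0.574%), 39 higher and 40 lower.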
